A study of Mus musculus with 9 samples.

Results

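The MAP kinase phosphatases described here are 8 genes, Dusp1, Dusp2, Dusp4, Dusp5, Dusp6, Dusp8, Dusp10 and Dusp16, out of 27203 gene identifiers in an expression table of mouse lung. They were chosen by name, as dual-specificity phosphatases that act on MAP kinases, with earlier results of these data known. A gene's value was the sum of FPKM, a fragment count scaled by transcript length and library size, over its transcript rows. The lungs came from male C57BL/6 mice aged 6 to 8 weeks, with 3 animals in each of 3 groups. Mice of both ventilator-induced lung injury (VILI) groups received 4 hours of mechanical ventilation with large breaths of 20 ml/kg, which overstretch the lung. Their lungs were taken right after ventilation (VILI at 0 hours, below VILI 0 h) or 6 hours later (VILI 6 h). Control mice were intubated but not put on the ventilator. Anaesthesia was by ketamine and xylazine, kept up during ventilation together with the muscle relaxant pancuronium, and how long the controls stayed under anaesthesia is not given in the sources used here. Lungs in the study were taken at several times after ventilation or the control procedure, and which of these times the sequenced controls had is not given. No group analysed here was ventilated at a low tidal volume, so in both comparisons with control high stretch, ventilation as such and its drugs cannot be told apart. The ventilated groups had the same ventilation and differ from each other in the time after it.

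MAP kinase phosphatases remove phosphate from both the threonine and the tyrosine of the activation loop of ERK, JNK and p38, and so switch these kinases off. Several of them are immediate early genes whose RNA is made within minutes of the kinase signal, which forms a negative feedback loop. The nuclear, inducible enzymes are encoded by Dusp1, Dusp2, Dusp4 and Dusp5, the ERK-selective cytoplasmic enzyme by Dusp6, and the enzymes that prefer JNK and p38 by Dusp8, Dusp10 and Dusp16. In the lung, Dusp1 is best known as a brake on p38-driven cytokine production and as a gene induced by glucocorticoids.

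RefSeq promoter windows on GRCm38.p6 matched 7 of the 8 genes, and Dusp4 had none. In each, the 250 bases before the start site were searched on both strands. Of these the stretch from base 250 to base 51 before the start site is printed, because GENCODE exons of Dusp1 and Dusp5 begin within the last 50 bases. The Dusp1 window is shown because Dusp1 was the one member that passed the test below. The windows of Dusp8 and Dusp5 were added after the search, as those with repeated copies of a site known from inducible genes. Capitals mark the full cyclic AMP response element TGACGTCA, its shorter core TGACG read on either strand, the E-box CACGTG and the CArG box, the site of serum response factor.

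Dusp1, chr17:26508523-26508722, minus strand: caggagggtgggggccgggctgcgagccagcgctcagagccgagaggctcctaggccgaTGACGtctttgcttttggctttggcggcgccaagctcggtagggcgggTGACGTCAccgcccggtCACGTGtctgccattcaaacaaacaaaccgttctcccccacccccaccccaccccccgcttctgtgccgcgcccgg
Dusp8, chr7:142095335-142095534, minus strand: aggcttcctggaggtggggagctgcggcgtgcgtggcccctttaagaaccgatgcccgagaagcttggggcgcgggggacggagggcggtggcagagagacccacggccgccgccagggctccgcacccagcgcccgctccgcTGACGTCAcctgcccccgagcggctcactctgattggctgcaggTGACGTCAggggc
Dusp5, chr19:53528895-53529094, plus strand: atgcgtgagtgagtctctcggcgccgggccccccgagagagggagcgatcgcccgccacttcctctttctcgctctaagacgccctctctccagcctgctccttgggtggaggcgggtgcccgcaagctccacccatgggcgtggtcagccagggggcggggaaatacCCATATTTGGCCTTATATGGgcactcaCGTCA

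The Dusp1 window held 1 full cyclic AMP response element, 143 to 136 bases before the start site, with an E-box 126 to 121 bases before it. Dusp8 held 2 full elements, at 107 to 100 and at 63 to 56 bases. Of 32851 RefSeq windows of this length, 1.55% held TGACGTCA and 6.02% held CACGTG. Dusp5 held 2 CArG boxes next to each other, at 82 to 73 and 72 to 63 bases, and a CArG box was found in 1.47% of all windows. The shorter core TGACG, which lies within every full element, also stood alone in Dusp1, Dusp5 and Dusp16, and was found in 17.8% of all windows. Dusp2 held the E-box at 109 to 104 bases, and Dusp6 held the glucocorticoid response element core ACANNNTGT at 102 to 94 bases, a motif found in 5.84% of windows. In all 10 motifs were searched. The GC box GGGCGG, found in 32.7% of all windows, was in 6 of the 7 windows, those of all but Dusp6. The AP-1 site TGANTCA (6.75% of all windows), the NF-kappaB site (7.25%), the ETS site CCGGAAGT (2.88%) and the TATA box TATAAA (12.4%) had no match in the 7 windows. These are matches of letters in a window, and binding was not measured. The printed Dusp5 window also overlaps an annotated antisense gene on the minus strand. The Dusp1 and Dusp8 windows lie inside the GENCODE spans of these genes given below. GENCODE thus has transcripts of both that start upstream of the windows, and those start sites were not searched.

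The summed FPKM of a library was between 366360 and 388459. Depth cannot be read from an FPKM table, and with 3 libraries against 3 the smallest two-sided p of an exact permutation test is 0.1. The tests below are limma tests on log2(FPKM + 0.1) over 19378 genes, called at the study's unadjusted P under 0.05, with the Benjamini-Hochberg adjusted p over all genes beside it. A log2 fold change on this scale understates changes of low genes, most for those near or under 0.1 FPKM in a group. The titles number the libraries within a group, and every p rests on the spread between single libraries. The main limma fit uses all 9 libraries, a permutation test the 6 compared, and a fit with libraries left out only those kept. The libraries of the VILI 6 h group stood far apart: over the 8 genes, replicate 1 differed from the control mean by a root-mean-square of 0.427 on the log2 scale, replicate 2 by 0.693 and replicate 3 by 1.12. In the VILI 0 h group the distances were 0.748, 0.489 and 1.20, and in control they were 0.149, 0.0731 and 0.140. The control mean was made from those 3 controls, which shortens their own distances, so the distances of control and ventilated libraries are not on an equal footing.

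In control lung the members spanned a wide range of levels, and all 8 passed the filter of a mean of 0.1 FPKM over the 9 libraries. By mean FPKM over the 3 controls, which is a value per transcript length, the order was Dusp1 (53.1), Dusp6 (31.3), Dusp16 (16.7), Dusp4 (6.59), Dusp8 (4.28), Dusp5 (4.195), Dusp10 (3.32) and Dusp2 (1.85). Among the controls the ranges of Dusp1, Dusp6, Dusp16 and Dusp4 did not touch those of their neighbours, while Dusp8, between 3.36 and 5.23 FPKM, overlapped both Dusp5 and Dusp10. Dusp1 was the highest member in all 9 libraries. It made up between 41.7% and 45.8% of the summed FPKM of the 8 genes in control, and 45.9%, 51.3% and 86.6% in the VILI 0 h libraries. In the VILI 6 h libraries its share was 41.9%, 64.2% and 64.2%.

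**Figure D1:**
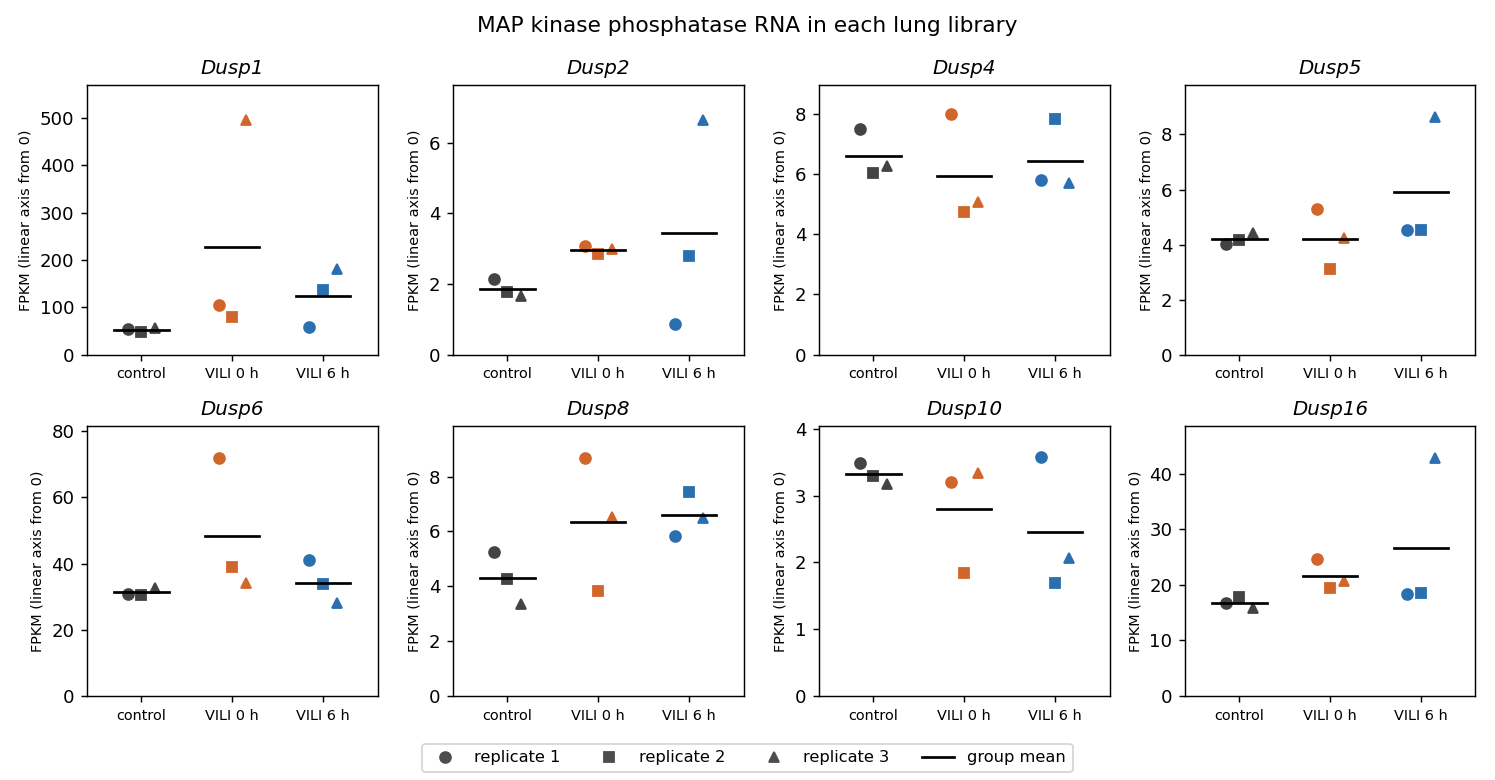
FPKM of each of the 8 genes (vertical axis, linear, from 0, with its own scale in each panel) in the 9 lung libraries, by group on the horizontal axis. Points are single libraries with the replicate number given by the symbol, and bars are group means of 3. Controls lie close together for most genes, while Dusp1 reaches 496 FPKM in 1 VILI 0 h library and Dusp2, Dusp5 and Dusp16 are highest in VILI 6 h replicate 3.

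Dusp1 encodes the nuclear phosphatase MKP-1 and was the one member called right after ventilation. Its FPKM was 53.9, 48.6 and 56.7 in the controls, 105.8, 78.7 and 496.0 in VILI 0 h, and 57.5, 137.3 and 180.1 in VILI 6 h. All 6 ventilated lungs lay above all 3 controls, but VILI 6 h replicate 1 exceeded the highest control by less than 1 FPKM. Group means were 53.1 ± 4.12 in control, 227 ± 234 in VILI 0 h and 125 ± 62.2 in VILI 6 h (mean ± SD, n = 3 each). In VILI 0 h against control, Dusp1 rose 3.03-fold by the geometric means, a log2 fold change of 1.60 with a 95% interval of 0.18 to 3.02 (limma P = 0.031, adjusted p = 0.257, exact permutation p = 0.1). The log2 fold change at VILI 6 h against control was 1.09, with an interval of −0.33 to 2.50 (limma P = 0.118, adjusted p = 0.347, exact permutation p = 0.1). Neither contrast passed the adjusted threshold. The contrast of VILI 6 h with VILI 0 h was −0.51, with an interval of −1.93 to 0.91.

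The size of the Dusp1 rise rested on 1 library. Without VILI 0 h replicate 3 the log2 fold change in VILI 0 h against control was 0.78 and the call was lost. The call was also lost when any 1 control was left out, at almost the same fold change, 1.61 without replicate 1, 1.54 without replicate 2 and 1.65 without replicate 3. At VILI 6 h, Dusp1 passed the unadjusted threshold without VILI 6 h replicate 1, at a log2 fold change of 1.57. It also passed without VILI 0 h replicate 3, at the same 1.09, a library that enters this contrast only through the shared spread.

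The library with the highest Dusp1 also had high RNA of some immediate early genes. Fos, a subunit of AP-1, was at 89.6 FPKM in VILI 0 h replicate 3, against 17.6 and 14.0 in the other VILI 0 h libraries and 24.7, 15.2 and 14.6 in control. Egr1, a zinc finger factor induced by ERK, was at 28.8 there and between 11.8 and 18.8 in control. Fosb, a relative of Fos, was at 3.02 there, its highest of the 9 libraries. It was at 0.807 and 0.686 in the other VILI 0 h libraries and between 1.40 and 2.19 in control. Errfi1, an inhibitor of the EGF receptor, was at 283.5 there, against 162.8 and 109.1 in the other VILI 0 h libraries and between 26.4 and 41.4 in control. Fos and Egr1 were next highest in VILI 6 h replicate 1, at 34.9 and 23.7, where Dusp1 was at the level of the controls. Other genes of the same kind did not peak in VILI 0 h replicate 3. Ier3, an immediate early gene induced by stress, was at 31.1 there, the lowest of the 9 libraries, against 113.5 and 52.6 in the other VILI 0 h libraries and between 48.5 and 53.7 in control. Jun, another AP-1 subunit, was at 94.8 there, above the controls but below the other VILI 0 h libraries, at 124.4 and 110.8. Egr3, a relative of Egr1, was at 1.17 there, above the other VILI 0 h libraries, at 0.780 and 0.366, and between 1.20 and 1.92 in control. The summed FPKM of 5 cardiac muscle markers was also highest in VILI 0 h replicate 3, at 270.0, and lay between 122 and 152 in the other 8 libraries. Fos, Fosb, Egr1, Ier3 and Jun were named after their values were seen. The part of any of these genes or of cardiac muscle in the Dusp1 level was not tested.

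The genes with the pattern most like that of Dusp1 over the 9 libraries were Sik1, Arl4d and Mxd1. Likeness was the root-mean-square difference between profiles of log2(FPKM + 0.1), each centred on its mean, over 13069 protein-coding genes with a mean of at least 1 FPKM. It was 0.38 for Sik1, 0.44 for Arl4d and 0.49 for Mxd1, while Dusp1 itself varied around its mean by 1.03. Sik1 encodes a salt-inducible kinase, Arl4d a small GTPase and Mxd1 a partner of MAX that opposes MYC. The Sik1 levels were 28.8, 25.4 and 30.2 FPKM in control, 49.0, 32.9 and 110 in VILI 0 h, and 29.8, 64.0 and 73.6 in VILI 6 h. As for Dusp1, its highest library was VILI 0 h replicate 3, and VILI 6 h replicate 1 lay at the level of the controls. The Mxd1 levels were between 8.28 and 8.92 FPKM in control, 18.1, 26.5 and 43.4 in VILI 0 h, and 11.9, 21.3 and 38.7 in VILI 6 h.

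**Figure D2:**
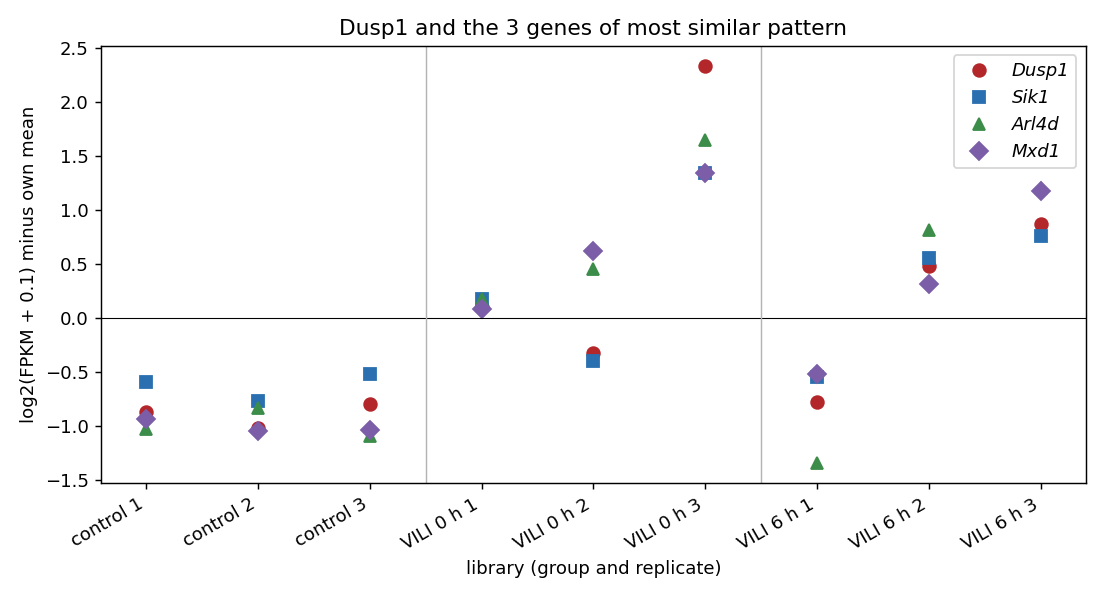
Dusp1 and the 3 genes of most similar pattern in the 9 libraries (horizontal axis), as log2(FPKM + 0.1) minus the gene's own mean over all libraries (vertical axis). Each point is 1 library. All 4 genes are at their highest in VILI 0 h replicate 3, and all 4 are below their means in the controls and in VILI 6 h replicate 1.

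Dusp2 encodes PAC-1, a nuclear phosphatase found mainly in blood cells, and was a low gene in these lungs. Its FPKM was 2.13, 1.77 and 1.66 in control, 3.06, 2.84 and 2.98 in VILI 0 h, and 0.869, 2.80 and 6.65 in VILI 6 h. The VILI 0 h libraries were tightly grouped and all above the controls, whereas the VILI 6 h libraries lay on both sides of them. Its log2 fold change at VILI 0 h against control was 0.66 (95% interval −0.58 to 1.89, limma P = 0.262, exact permutation p = 0.1), where the spread is shared with the scattered VILI 6 h libraries. With only the 6 libraries compared in the fit, the same 0.66 passed both thresholds (limma, adjusted p = 0.0375), and without VILI 6 h replicate 1 it passed the unadjusted one. In the fit of only the 6 libraries, 1597 of 19378 genes passed the adjusted threshold. The value for VILI 6 h against control was 0.46 (−0.78 to 1.69). It was 1.19 without replicate 1 of that group, past both thresholds (limma, adjusted p = 0.0267), and −0.21 without replicate 3. Without replicate 1, 7526 of 19378 genes passed the unadjusted threshold in this comparison.

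Dusp4 encodes MKP-2, and Dusp5 a nuclear phosphatase specific for ERK. The Dusp4 FPKM was 7.50, 6.02 and 6.27 in control, 7.99, 4.73 and 5.07 in VILI 0 h, and 5.80, 7.84 and 5.71 in VILI 6 h. The groups overlapped in every comparison, and Dusp4 varied least, with its highest library 1.69 times its lowest. Its log2 fold changes were −0.18 in VILI 0 h (95% interval −0.67 to 0.30) and −0.04 in VILI 6 h (−0.52 to 0.44) against control. With each library centred on its median the second value turned to 0.087.

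The Dusp5 FPKM was 4.01, 4.15 and 4.42 in control, 5.30, 3.10 and 4.23 in VILI 0 h, and 4.53, 4.52 and 8.63 in VILI 6 h. Right after ventilation its libraries lay around the controls, with a log2 fold change of −0.03 (95% interval −0.63 to 0.58) that turned to 0.088 with centred libraries. For VILI 6 h against control it was 0.41 (−0.19 to 1.02, limma P = 0.158, exact permutation p = 0.1). All 3 libraries of that group were above the controls, 2 of them by little, and without replicate 3 the log2 fold change was 0.11.

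Dusp6 encodes MKP-3, which holds ERK in the cytoplasm, and its RNA is often used as a readout of ERK activity. Its FPKM was 30.7, 30.5 and 32.5 in control, 71.9, 39.0 and 34.0 in VILI 0 h, and 40.9, 33.7 and 28.0 in VILI 6 h. All VILI 0 h libraries were above the controls, led by replicate 1, and the VILI 6 h libraries spread around them. The mean was 31.3 ± 1.09 in control and 48.3 ± 20.6 in VILI 0 h (SD, n = 3 each). Its log2 fold change at VILI 0 h against control was 0.55 (95% interval −0.02 to 1.11, limma P = 0.055, adjusted p = 0.322, exact permutation p = 0.1). It was 0.22 without VILI 0 h replicate 1. It passed the unadjusted threshold at 0.76 without VILI 0 h replicate 3, at 0.66 without VILI 0 h replicate 2 or with centred libraries, and at the same 0.55 with the replicate block or without VILI 6 h replicate 1. For VILI 6 h against control it was 0.11 (−0.45 to 0.68) and turned to −0.025 without VILI 6 h replicate 1. Dusp6 was thus highest in another library than Dusp1, and in VILI 0 h replicate 3, where Dusp1 peaked, it was at 34.0 FPKM.

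Dusp8, the gene with a pair of cyclic AMP response elements in the window above, encodes a phosphatase of JNK and p38. Its FPKM was 5.23, 4.26 and 3.36 in control, 8.68, 3.84 and 6.54 in VILI 0 h, and 5.83, 7.46 and 6.50 in VILI 6 h. The VILI 6 h libraries were all above the controls, and the VILI 0 h libraries overlapped them through replicate 2. Its log2 fold change at VILI 6 h against control was 0.63 (95% interval −0.002 to 1.26, limma P = 0.0505, adjusted p = 0.247, exact permutation p = 0.1), just outside the threshold. With centred libraries it was 0.75 and passed. It also passed with only the 6 libraries compared, with the highest row per gene, and when control replicate 1, VILI 0 h replicate 1, VILI 0 h replicate 2 or VILI 6 h replicate 1 was left out. Right after ventilation it was 0.50 (−0.12 to 1.13), and 0.82 without VILI 0 h replicate 2, past the unadjusted threshold.

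Dusp10 encodes MKP-5, a phosphatase of JNK and p38. Its FPKM was 3.49, 3.30 and 3.17 in control, 3.21, 1.84 and 3.34 in VILI 0 h, and 3.58, 1.70 and 2.07 in VILI 6 h. In each ventilated group at least 1 library lay well below the controls, and the groups overlapped. The log2 fold changes against control were −0.29 in VILI 0 h (95% interval −0.96 to 0.38) and −0.49 in VILI 6 h (−1.16 to 0.18). Without VILI 6 h replicate 1 the latter was −0.79 and passed the unadjusted threshold.

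Dusp16 encodes MKP-7, a phosphatase that prefers JNK. Its FPKM was 16.7, 17.8 and 15.8 in control, 24.6, 19.4 and 20.6 in VILI 0 h, and 18.3, 18.5 and 42.8 in VILI 6 h. All 6 ventilated lungs lay above all 3 controls, as for Dusp1. Its log2 fold change at VILI 0 h against control was 0.36 (95% interval −0.28 to 0.99, limma P = 0.242, exact permutation p = 0.1), and it passed the unadjusted threshold with only the 6 libraries compared in the fit or without VILI 6 h replicate 3. For VILI 6 h against control it was 0.54 (−0.10 to 1.18, limma P = 0.0869, adjusted p = 0.302, exact permutation p = 0.1), and 0.14 without VILI 6 h replicate 3. It passed the unadjusted threshold without VILI 6 h replicate 1 or replicate 2.

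**Figure D3:**
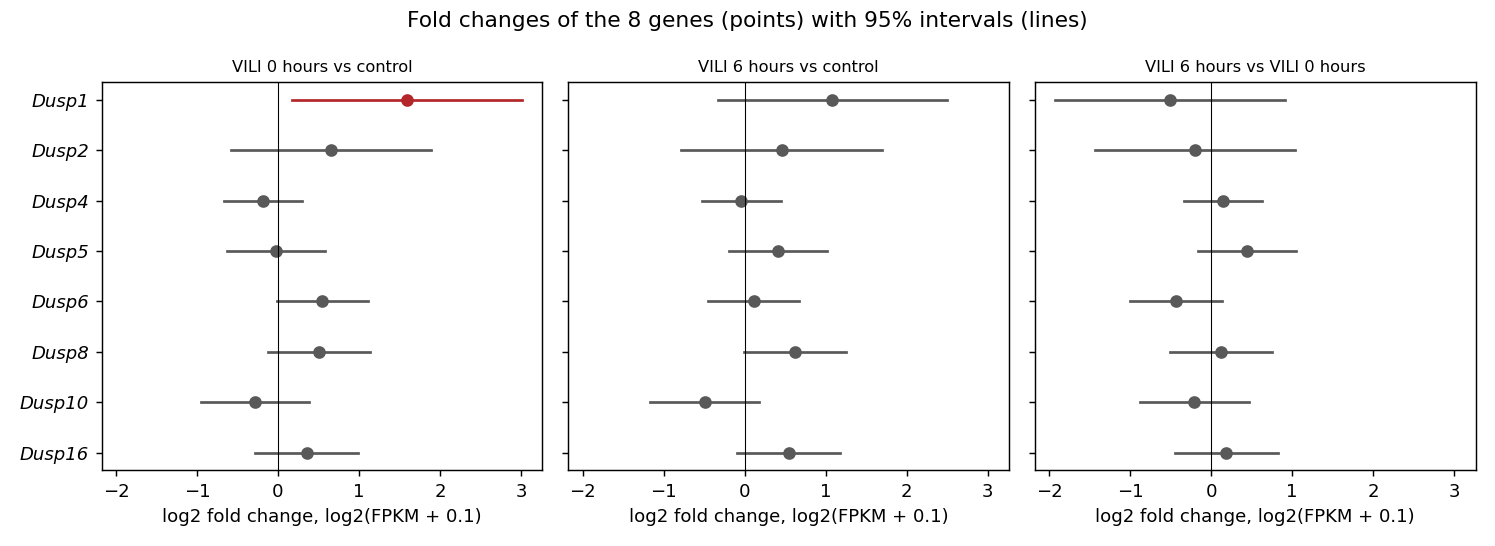
log2 fold changes of the 8 genes on the log2(FPKM + 0.1) scale (horizontal axis) for each comparison (panels), with points for the limma estimate and lines for its 95% interval. Dusp1 in VILI 0 h against control, in red, is the one value with an unadjusted P under 0.05, and all other intervals include 0.

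Over the list, 1 of 8 members rose and 0 fell in VILI 0 h against control, beside 16.2% of all genes called in either direction. At VILI 6 h against control 0 of 8 were called, beside 20.4% of all genes, and in VILI 6 h against VILI 0 h 0 of 8, beside 10.0%. By limma, 0 members had an adjusted p under 0.05 in the fit of all 9 libraries, beside 0.284%, 0.702% and 0% of all genes, and the lowest adjusted p of a member was 0.257, 0.247 and 0.608 in these comparisons. In VILI 0 h against control, 4 members (Dusp1, Dusp2, Dusp6 and Dusp16) had all 3 ventilated libraries above all controls, as had 12.0% of all genes. There were also 4 at VILI 6 h (Dusp1, Dusp5, Dusp8 and Dusp16), against 9.64% of all genes. Between the ventilated groups 0 members were separated, and 12.5% of all genes were. The median log2 fold change of the 8 genes was 0.43, 0.44 and −0.04 in the 3 comparisons, and that of all genes −0.07, −0.09 and −0.02. Both comparisons with control share the same 3 control libraries. Centring each library on its median raised the log2 fold changes of all genes against control by 0.115 in VILI 0 h and 0.127 in VILI 6 h, and the share of calls that were higher from 42.1% to 61.2% and from 40.1% to 58.1%.

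**Figure D4:**
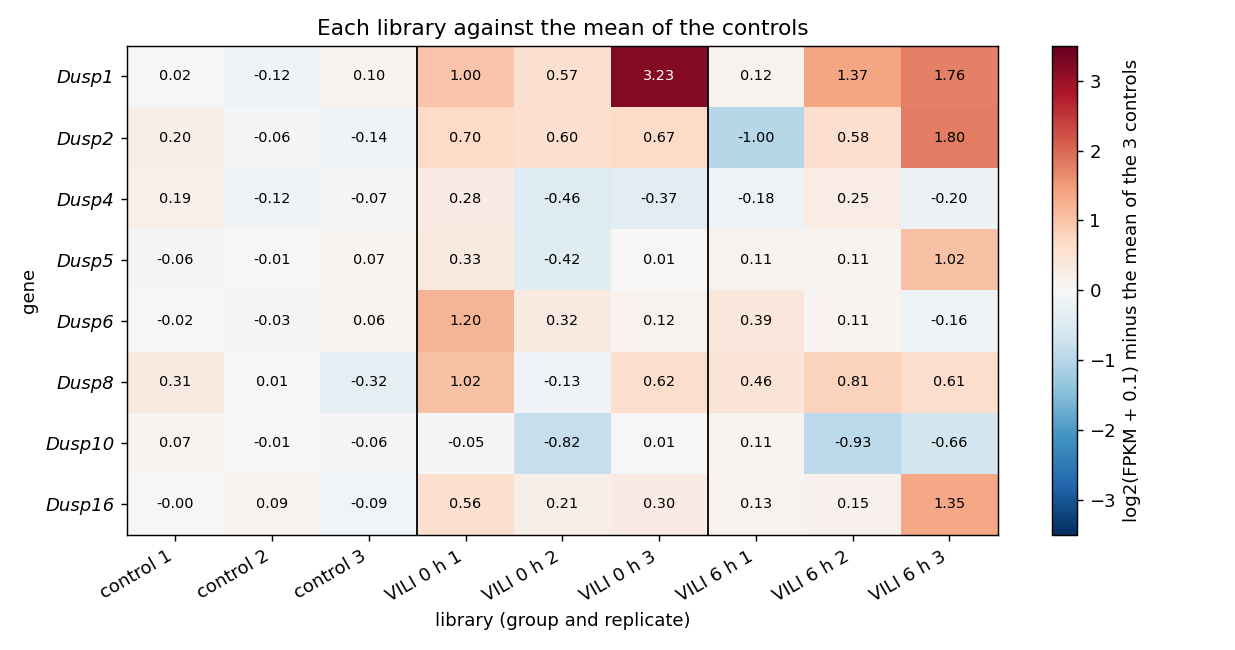
Each library (columns) against the mean of the 3 controls for each gene (rows), as a difference of log2(FPKM + 0.1), given in the cells and by colour. Red is above and blue below the control mean. Dusp1 reaches 3.23 in VILI 0 h replicate 3, and Dusp2, Dusp5 and Dusp16 reach 1.80, 1.02 and 1.35 in VILI 6 h replicate 3.

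The members did not peak in the same lung. VILI 0 h replicate 3 was the highest library for Dusp1, VILI 0 h replicate 1 for Dusp4, Dusp6 and Dusp8, VILI 6 h replicate 3 for Dusp2, Dusp5 and Dusp16, and VILI 6 h replicate 1 for Dusp10. The closest pair of profiles within the family was that of Dusp5 and Dusp16, with a root-mean-square difference of 0.216 on the log2 scale over the 9 libraries, and the farthest was that of Dusp1 and Dusp10, at 1.18. Without Dusp1, the summed FPKM of the other 7 was between 67.1 and 69.8 in control, 124.8, 74.7 and 76.8 in VILI 0 h, and 79.9, 76.5 and 100.3 in VILI 6 h.

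**Figure D5:**
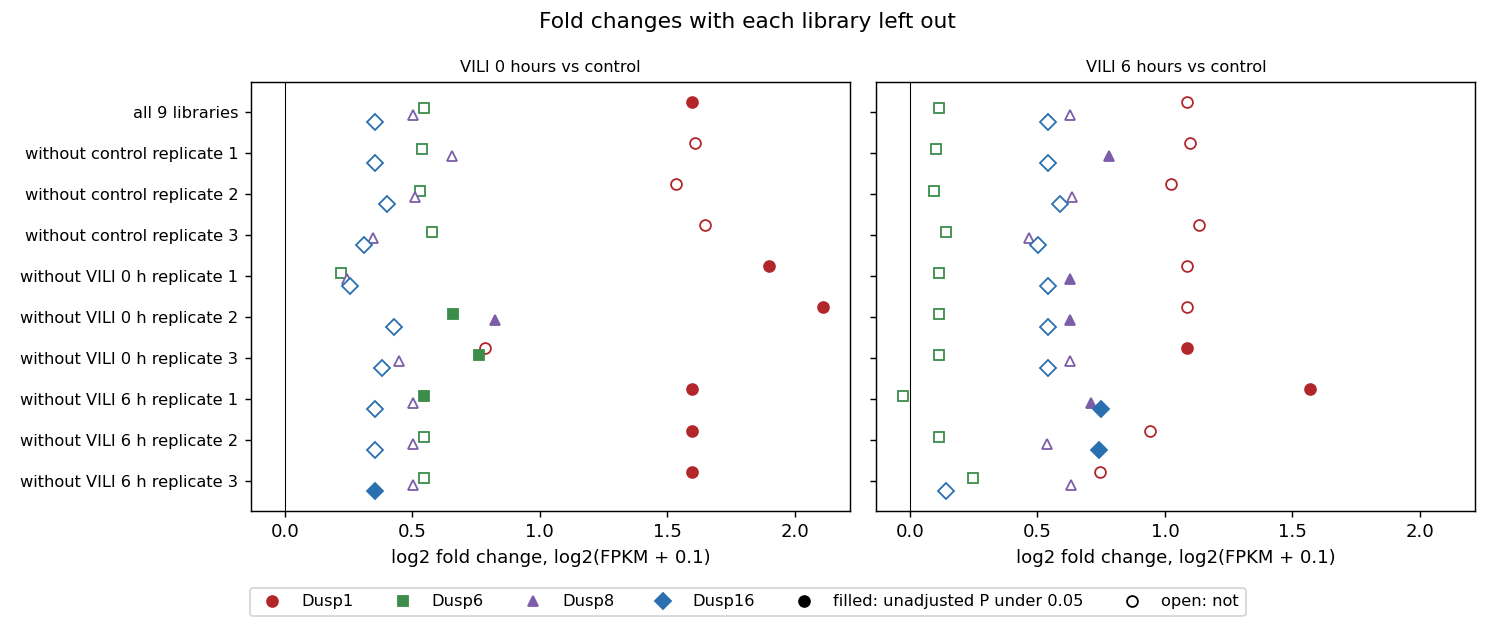
log2 fold changes of Dusp1, Dusp6, Dusp8 and Dusp16 (horizontal axis) with all 9 libraries and with each library left out in turn (vertical axis). Filled symbols have an unadjusted P under 0.05 by limma and open symbols do not. In VILI 0 h against control, Dusp1 drops from 1.60 to 0.78 without VILI 0 h replicate 3, and in VILI 6 h against control it reaches 1.57 without VILI 6 h replicate 1.

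On GRCm38 with GENCODE release 21 annotation, each of the genes lies on a chromosome of its own. Dusp1 spans chr17:26505590-26562128, Dusp2 chr2:127336159-127338376, Dusp4 chr8:34807297-34819894 and Dusp5 chr19:53529109-53542431. Dusp6 spans chr10:99263231-99267489, Dusp8 chr7:142079490-142095843, Dusp10 chr1:184013302-184075636 and Dusp16 chr6:134715468-134792625. The far end of the Dusp1 span overlaps Ergic1 on the opposite strand, which had a mean of 20.3 FPKM. Gm8225, also on the opposite strand and with a mean of 0.161 FPKM, lies inside the span. Dusp10 overlaps 1700056E22Rik (mean 0.531 FPKM) and Dusp16 an assembled locus (mean 0.984 FPKM), both on the opposite strand. Whether the counting used strand is not settled, so reads of such overlaps cannot be told apart.

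Values were also compared for the single transcript rows behind the sums. Dusp8 had 2 rows, of which 1 was above 0 only in control replicate 1, at 0.388 FPKM. Dusp16 had 3 rows, and its main row moved like the sum, with a log2 fold change of 0.35 in VILI 0 h and 0.53 in VILI 6 h against control. Dusp10 had a main row and a low row. The low row was at 0.297, 0.304 and 0.468 FPKM in control, 0.525, 0.170 and 0.927 in VILI 0 h, and 0.0728, 0 and 0.331 in VILI 6 h. It was lower in VILI 6 h than in VILI 0 h by limma, with a log2 fold change of −1.51 (past the unadjusted threshold, adjusted p = 0.670), while the main row was at −0.02. The other 5 genes had 1 row each.

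The other genes of the pathway are given as log2 fold changes on the log2(FPKM + 0.1) scale, called at the same unadjusted threshold. The shares of all genes called in either direction stand beside every list count below. They were 16.2% in VILI 0 h against control, 20.4% in VILI 6 h against control and 10.0% in VILI 6 h against VILI 0 h. Of 12 other dual-specificity phosphatases, 2 were called higher and 1 lower in VILI 0 h against control, 0 in VILI 6 h against control, and 1 lower in VILI 6 h against VILI 0 h. Their median log2 fold changes were −0.12, −0.26 and −0.22, against −0.07, −0.09 and −0.02 over all genes. Dusp7, a cytoplasmic ERK phosphatase close to Dusp6, was at 35.3, 34.7 and 35.0 FPKM in control and 38.6, 49.5 and 54.3 in VILI 0 h, a rise of 0.43. Dusp23, a small phosphatase, rose by 0.63 in VILI 0 h against control and was lower in VILI 6 h than in VILI 0 h (−0.81). Dusp14, a negative regulator of T cell signalling, changed by −0.67 in VILI 0 h against control. Of 8 other phosphatases that act on MAP kinases, Ppp2cb, a catalytic subunit of PP2A, rose by 0.22 in VILI 6 h against control. Right after ventilation 1 was called lower, Ptpn5, named here after its values were seen, which had a mean of 0.256 FPKM in control.

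The substrates of these enzymes, 10 MAP kinases, were called 0 higher and 2 lower in VILI 0 h against control, 1 higher and 2 lower in VILI 6 h against control, and 2 higher and 0 lower between the ventilated groups. Of all genes 16.2%, 20.4% and 10.0% were called in these comparisons. Mapk11 and Mapk12, which encode p38 beta and p38 gamma, fell by 0.73 and 0.53 on the log2 scale in VILI 0 h. Both were higher in VILI 6 h than in VILI 0 h, by 1.06 and 0.31. In VILI 6 h against control Mapk13, which encodes p38 delta, rose by 0.65, Mapk8, which encodes JNK1, fell by 0.55 and Mapk3, which encodes ERK1, fell by 0.32. Of 18 kinases upstream of the MAP kinases, 1 was called higher and 1 lower in VILI 0 h against control, and 2 higher and 1 lower in VILI 6 h against control. At the later time Map3k8, the kinase Tpl2 that links inflammatory receptors to ERK, rose by 1.13, and Map2k6, an activator of p38, fell by 1.24. Map3k3, an activator of several of these cascades, was called higher at both times, by 0.32 and 0.24. Braf, which encodes a RAF kinase that activates the ERK pathway, was the 1 called lower in VILI 0 h, at −0.24. Between the ventilated groups 1 was called higher, Map2k3, by 0.45.

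Of 9 kinases that MAP kinases activate, Mknk2, which acts on the cap-binding factor eIF4E, was the 1 called higher in VILI 0 h against control, by 0.58. At the later time Mapkapk2, the p38 target that stabilises cytokine RNAs, rose by 0.50 and Rps6ka5, a histone kinase, fell by 0.52. Of the 8 inhibitors of ERK signalling, 2 were called higher in VILI 0 h and 3 in VILI 6 h against control, with 0 lower. Errfi1 was called higher by 2.39 and 1.77, although VILI 6 h replicate 1, at 30.8 FPKM, lay within the controls, and Spry4, an antagonist of receptor tyrosine kinases, by 0.83 and 0.95. Its relative Spry1 was called higher in VILI 6 h against control, by 0.31. The Spry4 levels were 9.56, 8.89 and 10.8 FPKM in control, 20.6, 11.7 and 21.5 in VILI 0 h, and 13.0, 21.6 and 24.0 in VILI 6 h. Both ventilated groups lay wholly above the controls for Spry4, as they did for Dusp1 and Dusp16. Between the ventilated groups, 2 of the activated kinases were called higher in VILI 6 h, Rps6ka4 by 0.36 and Rps6ka3 by 0.31, and Mknk2 was called lower (−0.40). Of the inhibitors Spred1, which blocks activation of RAF, was called higher by 0.38 and 0 were lower.

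Of 16 transcription factors that respond to MAP kinases, 4 were called higher and 1 lower in VILI 0 h against control, and 6 higher and 0 lower in VILI 6 h against control. Fosl2, Junb and Atf3, members of the AP-1 and ATF families, were called higher at both times, by 1.41 and 1.69, by 1.30 and 1.58, and by 1.29 and 1.09. Myc, which encodes a growth factor-induced regulator of proliferation, was called higher in VILI 6 h against control, by 1.36. Its FPKM was between 1.78 and 2.70 in control, 4.97, 3.41 and 2.18 in VILI 0 h, and 3.23, 6.20 and 11.01 in VILI 6 h. Between the ventilated groups 1 was called higher and 0 lower: Fosl1, another AP-1 subunit, with a mean of 0.0783 FPKM in VILI 0 h and 1.61 in VILI 6 h, and a log2 fold change of 2.41. Against control Fosl1 was called higher in VILI 6 h, by 2.94, the largest log2 fold change of the list there, with 4.15 FPKM in replicate 3 and less than 0.5 in the others. It was named after its values were seen, since its mean over the 9 libraries was under 1 FPKM. Egr3, an ERK-responsive zinc finger factor, was the 1 called lower, from a mean of 1.53 FPKM in control to 0.770 in VILI 0 h. Junb was at 27.3, 21.9 and 22.1 FPKM in control, 40.0, 49.0 and 100.7 in VILI 0 h, and 46.6, 68.2 and 111 in VILI 6 h. Unlike Dusp1, Junb in VILI 6 h replicate 1 was clearly above the controls. Fos, the classic immediate early gene, was not called, with log2 fold changes of 0.67 (limma, adjusted p = 0.636) and 0.49 (limma, adjusted p = 0.668).

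Of 8 cytokine and enzyme RNAs under p38 control, 7 were tested. In VILI 0 h against control 2 were called higher, in VILI 6 h against control 3, and in VILI 6 h against VILI 0 h 2, with 0 lower. Il1b, which encodes interleukin-1 beta, rose by 3.14 and 2.88 at the respective times against control. Il6, which encodes interleukin-6, was between 0.138 and 0.277 FPKM in control, at 0.385, 0.0961 and 0.162 in VILI 0 h, and at 0.306, 1.58 and 19.3 in VILI 6 h. Cxcl2, a neutrophil attractant, was between 0.0463 and 0.122 in control and at 2.30, 2.88 and 150.1 in VILI 6 h. Cxcl2 was called higher at both times against control, by 3.31 and 5.90 on the log2(FPKM + 0.1) scale, which understates both since its controls lay near or under 0.1 FPKM, and Il6 in VILI 6 h, by 2.93. The 2 called higher in VILI 6 h than in VILI 0 h were Il6, by 3.02, and Cxcl1, another neutrophil attractant, by 3.33. The Cxcl1 levels were 0.145, 1.33 and 0.288 FPKM in VILI 0 h and 0.762, 3.49 and 44.4 in VILI 6 h. For both genes these groups overlapped. The highest library for Il6, Cxcl1 and Cxcl2 was VILI 6 h replicate 3, also the highest for Dusp2, Dusp5 and Dusp16. In this and in the other pathway lists no gene had an adjusted p under 0.05 by limma.

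Some cell type markers, most of all those of neutrophils, differed between the groups. The tissue label matched the markers: alveolar type 2 markers, with Sftpc and Sftpb among them, summed to between 12026 and 15036 FPKM in every library, and all 6 of 6 were above 0. Against control 1 of them was called higher in VILI 0 h and 1 lower in VILI 6 h. The 8 neutrophil markers summed to 56.8, 48.5 and 56.0 FPKM in control, 560, 1024 and 847 in VILI 0 h, and 467, 994 and 1940 in VILI 6 h. By limma 8 of 8 were called higher at both times, 6 and 8 of them with an adjusted p under 0.05, and Ly6g was at 0 in at least 1 library. Within VILI 6 h the sum ran in the same order as Dusp1 and Dusp2, lowest in replicate 1 and highest in replicate 3. In VILI 6 h replicate 1 it was far above the controls, whereas Dusp2 was below them. Within VILI 0 h the sum was highest in replicate 2, where Dusp1 was lowest, with S100a8 at 280 and S100a9 at 490 FPKM there. Single markers did not all run in that order: Csf3r, at 23.7, 33.4 and 57.1, and Cxcr2, at 10.6, 20.8 and 23.3, were highest in replicate 3, where Dusp1 peaked. In VILI 6 h Csf3r, at 36.8, 24.7 and 27.9, was highest in replicate 1, where Dusp1 and the neutrophil sum were lowest, while Cxcr2, at 11.6, 19.8 and 27.0, followed the sum. These markers were named after their values were seen. The 4 B cell markers summed to between 41.1 and 54.5 FPKM in control, 17.5 and 56.0 in VILI 0 h and 11.4 and 34.2 in VILI 6 h, and 1 of 4 was called lower in VILI 0 h and 3 of 4 in VILI 6 h against control. The 5 T cell markers summed to between 16.2 and 21.5 in control, to 27.9, 20.8 and 14.7 in VILI 0 h and to 8.10, 16.6 and 23.0 in VILI 6 h. Within VILI 6 h this sum also ran in the order of Dusp1 and Dusp2, and like Dusp2 it was at its lowest of all 9 libraries in VILI 6 h replicate 1. By limma 0 of the 5 T cell markers were called at an unadjusted P under 0.05 in any comparison. Within VILI 6 h, Dusp16 and the endothelial sum, at 680, 810 and 817, ran in the order of Dusp1 and Dusp2 too. In VILI 6 h replicate 1 the B cell (11.4), endothelial and type 2 (12026) sums were also lowest of all 9 libraries. The alveolar macrophage and type 1 sums, at 631 and 1371, were at their highest there. The 5 alveolar macrophage markers summed to between 215 and 294 in control, 337 and 415 in VILI 0 h and 227 and 631 in VILI 6 h, with 2 called higher in VILI 0 h and 1 in VILI 6 h against control. The sums of 5 alveolar type 1 markers lay between 940 and 1371 and of 5 endothelial markers between 680 and 857 over all libraries, and those of the cardiac muscle markers are given beside Dusp1 above. Of the type 1 markers 2 of 5 were called higher at both times against control, and of the endothelial markers 1 of 5 was called lower in VILI 6 h. Of the cardiac muscle markers 0 of 5 were called by limma at the unadjusted threshold. The part of cell makeup in the values of the 8 phosphatases was not tested, and in bulk lung more cells of a type and more RNA per cell cannot be told apart.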

How the data were processed

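The table holds 9 mouse lung libraries, 3 per group. The authors aligned reads to GRCm38 with TopHat2 2.0.9 and Bowtie2 2.0.6 and deposited FPKM per transcript row from Cuffdiff 2.1.1, per the submitters' processing notes. FPKM divides by transcript length and library size, so counts and depth cannot be read back. The library kit and sequencer differ between the labels and the study's methods, so strand use is unsettled. The label's TruSeq kit and the methods' directional kit would differ in that respect.

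The gene IDs were matched to GENCODE mouse release 21 (23503 of 23713 Ensembl IDs), rows were summed per gene, and log2(FPKM + 0.1) of 19378 genes with a mean of at least 0.1 FPKM entered 1 fit of all 9 libraries in limma 3.58.1 (R 4.3.3, lmFit and eBayes with trend, group as the only term). Calls used an unadjusted P under 0.05, with Benjamini-Hochberg adjustment over all genes, and scripts were tested on simulated data. Alternatives changed the pseudocount, filter, scaling, libraries, trend, replicate block and row choice, or left out 1 library. All members are named. Of a pathway list, called genes with a mean of at least 1 FPKM were named, at most 4 per list and comparison by fold change, and genes of single results beside them were named after their values were seen. The members and lists were chosen with earlier results of these data known. Sequences are from RefSeq tables.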

Additional observations from a re-analysis of the deposited data

How the results depend on the processing

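With 3 libraries a group and no counts, single libraries decided calls of members. The number of members called in VILI 0 h against control was 1 (Dusp1), and it was 2 with median-centred libraries (Dusp1 and Dusp6), 3 with only the 6 libraries compared (Dusp1, Dusp2 and Dusp16) and 0 to 3 with 1 library left out. In VILI 6 h against control it was 0, and it was 1 with centred libraries or with the highest row per gene (both Dusp8), 2 with only the 6 libraries compared (Dusp1 and Dusp8) and 0 to 5 with 1 library left out, the 5 being Dusp1, Dusp2, Dusp8, Dusp10 and Dusp16 without VILI 6 h replicate 1. In VILI 6 h against VILI 0 h it was 0, and 0 to 1 with 1 library left out (Dusp6 without VILI 0 h replicate 3). All genes called were 3130, 3952 and 1938 of 19378. With centred libraries 3176 were called in VILI 0 h against control. With only the 6 libraries compared all genes called were 5094 and 1210 in VILI 0 h against control and VILI 6 h against VILI 0 h. For VILI 6 h against control, all-gene counts with centred libraries, the highest row or the 6 libraries are not given here. With 1 library left out all genes called ranged from 1979 to 4493, from 2543 to 7526 and from 1407 to 4350, the highest each time without VILI 6 h replicate 1. The cause was not tested. With an adjusted p under 0.05, genes called in VILI 0 h against control were 55, against 1597 with only the 6 libraries compared, 1 with no filter and 1 to 1343 with 1 library left out. In VILI 6 h against control they were 136, against 4512 without VILI 6 h replicate 1 and 3, 0 and 1 without control replicates 1, 2 and 3. Dusp2 was the one member with an adjusted p under 0.05 under any alternative, in VILI 0 h with only the 6 libraries compared and in VILI 6 h without VILI 6 h replicate 1, each against control.

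Of the alternative values of single members, 388 kept direction and side of the threshold, 25 passed it only under the alternative, 4 lost it (all Dusp1 at VILI 0 h) and 15 changed sign, none of the last a call. With centred libraries Dusp5 turned to 0.0884 at VILI 0 h against control and Dusp4 to 0.0870 at VILI 6 h against control. The other sign changes came from leaving out 1 library, which gave −0.20 to 0.17 for Dusp5 at VILI 0 h against control, and at VILI 6 h against control −0.21 to 1.19 for Dusp2, −0.19 to 0.0545 for Dusp4 and −0.0255 to 0.25 for Dusp6. Between the ventilated groups the ranges were −1.03 to 0.30 for Dusp1, −0.87 to 0.53 for Dusp2, −0.0033 to 0.37 for Dusp4, −0.20 to 0.38 for Dusp8, −0.51 to 0.0106 for Dusp10 and −0.22 to 0.39 for Dusp16.

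The replicate numbers do not pair the samples: deviations of same-numbered libraries correlated at −0.267 to 0.041. With the replicate block, 2 members (Dusp1 and Dusp6) were called in VILI 0 h against control and 0 in the other comparisons, and all genes called were 2816, 3485 and 1693.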
